A study of Mus musculus with 10 samples.

Results

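The 10 genes described here encode the proteins that bring mRNA to the ribosome through its cap: the scaffolds Eif4g1, Eif4g2 and Eif4g3, the cap-binding proteins Eif4e and Eif4e2, the helicases Eif4a1 and Eif4a2, and the inhibitors Eif4ebp1, Eif4ebp2 and Pdcd4. They were chosen by symbol, as Eif4g2 and its paralogs and partners, out of 52550 genes in the count table. All 10 were measured, with between 1524 reads for Eif4ebp1 and 59358 for Eif4g2 in a library, and all passed the minimum of 10 counts in total. The authors report Eif4g2 as a direct target of miR-139. The question asked of the 10 genes was whether other members rise when Eif4g2 is lower after miR-139 induction.

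RNA was sequenced from MLL-AF9-i139 cells, which are hematopoietic stem and progenitor cells (HSPCs) from bone marrow of wild-type C57BL/6 mice aged 8 to 20 weeks, made leukemic by a retrovirus carrying the fusion oncogene MLL-AF9. All lines also carried the repressor tetR-KRAB, and the i139 lines the lentivirus pCW-miR-139, from which doxycycline (DOX) induces miR-139. Each of 3 i139 clones, grown from picked colonies, gave 1 library with DOX at 5 µg/mL and 1 without. The labels give 48 h of DOX for clones 1 and 2, 72 h for clone 3, and no time for the untreated i139 cultures. As the count table numbers the clones differently from the sample titles, the 72 h are assigned to clone 3 by the number in the titles. The control line MLL-AF9-ieGFP, in which DOX induces eGFP instead, is 1 clone, sequenced at 48 h and 72 h, each with DOX and without. The culture medium held the cytokines GM-CSF, SCF, IL-6 and IL-3. The ieGFP replicates are thus 2 time points of 1 clone, and clone and time of DOX cannot be told apart in i139.

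In textbook terms, eIF4E binds the mRNA cap, eIF4G holds eIF4E, the helicase eIF4A and the ribosome-bound factor eIF3 together, and this assembly is called eIF4F. Eif4g2, also known as DAP5, resembles the rear part of eIF4G but lacks the site that binds eIF4E, and is known for initiation that does not need it. The 4E-BPs, encoded by Eif4ebp1 and Eif4ebp2, compete with eIF4G for eIF4E until mTOR phosphorylates them, and PDCD4 holds eIF4A inactive. Eif4e2, or 4EHP, binds the cap without recruiting eIF4G. MiRNAs pair through their seed, bases 2 to 8, with sites that lie mostly in 3′ UTRs.

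The mature strands of miR-139 are shown first because the members differ in their matches to them. Capitals mark the seed, and the sequences are those of RefSeq, on the plus strand of chromosome 7 of GRCm38.p6.
miR-139-5p, chr7:101475382-101475403: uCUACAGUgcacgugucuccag
miR-139-3p, chr7:101475418-101475439: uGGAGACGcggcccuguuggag

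Of the 10 members, 3 hold a match to the seed of miR-139-5p in their longest annotated 3′ UTR, read from GENCODE M21 transcripts of GRCm38. The search was for 8 bases (ACTGTAGA), or 7 of them at either end, on the mRNA strand alone. The windows of 30 bases around the matches, with the match in capitals, are the following.
Eif4g2, chr7:111072324-111072353, minus strand, exon 22 of 22: caacactgaatACTGTAGAgatgcactttg
Eif4e, chr3:138558963-138558992, plus strand, exon 8 of 8: tcctggaactcACTGTAGActaggctgggc
Eif4e, chr3:138559254-138559283, plus strand, exon 8 of 8: tggaactcattCTGTAGAccaggctgagca
Eif4ebp1, chr8:27276167-27276196, plus strand, exon 3 of 3: atgttaggtagACTGTAGctgtcttcagat
The Eif4g2 site starts at base 350 of a 3′ UTR of 4942 bases. The Eif4e sites start at bases 3470 and 3761 of 4192, and the Eif4ebp1 site at base 1067 of 1563. Long UTRs often hold such matches: among genes with a 3′ UTR of 0.8 to 1.25 times the length, 56.95% had one for Eif4g2, 52.41% for Eif4e and 22.75% for Eif4ebp1. Over all 21173 genes with an annotated 3′ UTR the share was 20.15%. Matches to miR-139-3p were found in Eif4g2 (1), Eif4g3 (1), Eif4e2 (1) and Eif4ebp2 (3), against 15.27% of all genes. Among genes with a 3′ UTR of like length the share was higher. It was 41.73% for Eif4g2, 23.94% for Eif4g3, 26.18% for Eif4e2 and 43.65% for Eif4ebp2. Eif4g1, Eif4a1, Eif4a2 and Pdcd4 hold neither. With all annotated 3′ UTR bases of a gene merged, Eif4e2 gains a miR-139-5p match and Eif4a1 a miR-139-3p match, so that 7 members in place of 6 hold any.

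The authors placed the Eif4g2 site in a luciferase reporter as a designed duplex of 60 bases, in a wild-type and a mutated form that differ in 3 bases. They are shown to give the bases that carry the match, with the changed bases in capitals.
Wild-type duplex, bases around the match: aacactgaatactGTAgagatgcactttgc
Mutated duplex, the same bases: aacactgaatactCCCgagatgcactttgc
The wild-type duplex holds 1 match to the miR-139-5p seed and the mutated duplex 0. From their reporter assays the authors report Eif4g2 as a direct target of miR-139.

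The libraries held between 35133308 and 47089725 counted reads, so counting error was not the main limit for most members; for Eif4a2, whose levels differed little between clones, it was not small beside the spread. Mir139 itself had 0 counts in each library, so the induction could not be checked in these counts. The authors report it from qPCR of i139 clones. The host gene Pde2a had 1 count in all, but DOX induces miR-139 from the lentivirus and not from this gene. Of 12 markers of myeloid progenitors and MLL-AF9 cells, 11 had at least 10 counts in every library, among them Kit, Hoxa9 and Meis1. The exception was Itgam, which encodes CD11b and had 6 counts in all 10 libraries together. By flow cytometry, which measures protein, the authors report their MLL-AF9 cells as positive for CD11b. The cause of this difference was not tested. The T cell markers summed to at most 0.731 CPM, that is counts relative to the library total, the unit used for levels here. The summed progenitor markers lay between 3324 and 4993 CPM without DOX and between 4723 and 7265 with DOX in i139. Mpo, a granule enzyme, had 414 to 615 without and 1244 to 1669 with DOX. Hoxa9 (106 to 141 and 84.9 to 110) and Meis1 (93.6 to 112 and 81.3 to 97.2) lay lower with DOX, with overlap. Of the 11 markers tested in i139, 5 were higher and 2 lower with DOX with the clone as a block (adjusted p under 0.05, edgeR). Of all genes, 7.05% were higher and 5.33% lower in that fit. In the fit without the clone, 0 of the 11 passed. Mature neutrophil markers summed to between 130.3 and 223 CPM without and between 193 and 361 with DOX in i139. In ieGFP they summed to between 296 and 378 without and between 284 and 399 with DOX. The progenitor sums there were 3504 to 4308 and 3860 to 5454, and Mpo had 524 to 642 and 705 to 927. The part of these shifts in the values of the eIF4F genes was not tested, and in bulk RNA fewer cells of a type cannot be told apart from less RNA per cell.

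Eif4g2 (ENSMUSG00000005610, chromosome 7, minus strand, 111067750 to 111083030, GRCm38) was lower in each DOX-treated i139 clone than in any of the other 7 libraries. Untreated clones 1, 2 and 3 had 1217, 1256 and 1380.1 CPM, scaled with the TMM method, and the same clones with DOX had 540.2, 515 and 822. The groups did not overlap, and clone 3 kept the most. The level with DOX was 0.491 times that without (95% interval 0.369 to 0.654), a log2 fold change of -1.03 (SE 0.18, n = 3 clones, adjusted p = 0.0865 over 19223 genes, edgeR's quasi-likelihood test). The 2 libraries of a clone deviate together from their group means, and a fit blocked by clone gave a log2 fold change of -1.06 (SE 0.11, adjusted p = 0.0109, edgeR). With DESeq2, the tool the authors name, the adjusted p was 5.4e-05. The log2 change within a clone was -1.17 and -1.29 in clones 1 and 2, and -0.75 in clone 3. Leaving clones out one at a time kept the fold change between -1.21 and -0.92, and the adjusted p without the block ran from 0.000361 without clone 3 to 0.742 without clone 2 (edgeR).

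Neither paralog of Eif4g2 was higher with DOX in all clones. Eif4g1 (ENSMUSG00000045983, chromosome 16, 20668313 to 20692884), the main scaffold of eIF4F, had 859, 959 and 896 CPM without DOX and 653, 709 and 803 with DOX in clones 1, 2 and 3. No treated clone reached the lowest untreated one. The log2 fold change was -0.31 (SE 0.11, n = 3 clones, adjusted p = 0.170, edgeR), and -0.32 in the blocked fit (SE 0.08, adjusted p = 0.0507, edgeR). It passed the threshold without clone 3, at -0.40 (adjusted p = 0.0326, edgeR), and in a blocked fit of all 10 libraries (adjusted p = 0.00971, edgeR), an alternative chosen after seeing the data. Its 3′ UTR holds no match to either strand of miR-139.

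Eif4g3 (ENSMUSG00000028760, chromosome 4, 137993022 to 138208508), the other full-length scaffold, was close to its untreated level. It had 461, 411 and 436 CPM without DOX and 454, 478 and 437 with DOX. The order of the clones differed between the groups, and the groups overlapped. With DOX the level was 1.06 times that without (95% interval 0.911 to 1.23), a log2 fold change of 0.08 (SE 0.09, n = 3 clones, adjusted p = 0.669, edgeR; 0.559 with the clone as a block). A rise of Eif4g3 above 1.23-fold lies outside this interval. The gene body of Eif4g3 exceeds its exons in length 19.48 times and holds an antisense gene, and it is not stated whether the counting used strand.

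**Figure D1:**
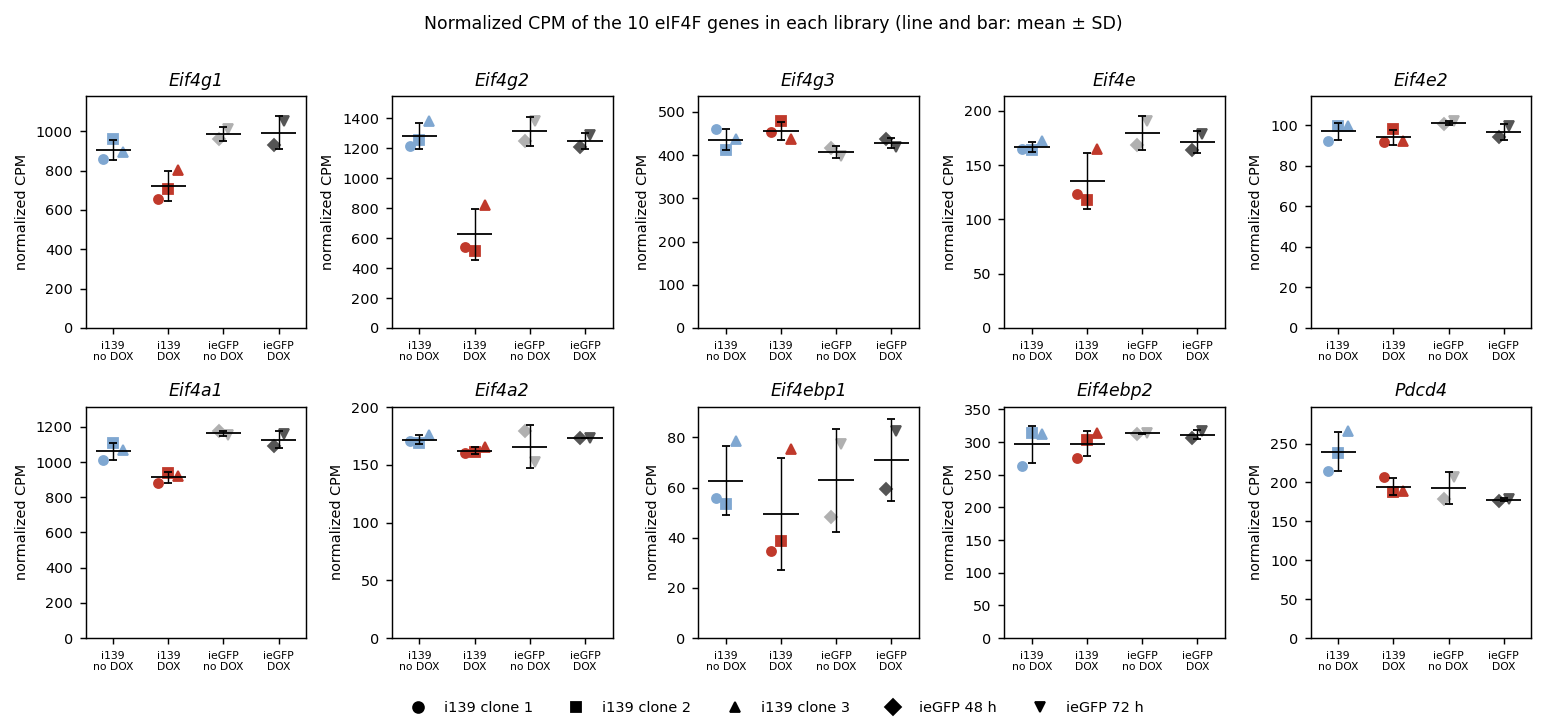
Normalized CPM (vertical axes, starting at 0) of each eIF4F gene in each of the 10 libraries, with clones and time points as symbols, and the mean ± SD of each group as a line and bar. Eif4g2 stands at 515 to 822 CPM in the 3 DOX-treated i139 clones and at 1211 CPM or above in the other 7 libraries, while Eif4g3 stays between 397 and 478 in all 10.

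Genes can be compared with each other only per length, so levels were divided by the length of the merged exons. In untreated i139 clones the order was led by Eif4a1, at 245 ± 11.1 CPM per kilobase (SD, n = 3 clones). Eif4g2 with 126 ± 8.39 and Eif4g1 with 124 ± 6.91 came next and differed by less than their spread. They were followed by Pdcd4 (76.5 ± 8.05), Eif4ebp2 (51.3 ± 4.89), Eif4g3 (39.4 ± 2.25) and Eif4a2 (32.2 ± 0.722). Eif4ebp1 (28.6 ± 6.30) and Eif4e (27.7 ± 0.773) again differed by less than their spread, and Eif4e2 was lowest, at 13.0 ± 0.565. With DOX, Eif4g2 dropped from the second to the fourth place of this order, at 61.5 ± 16.8, beside Pdcd4 with 62.1 ± 3.49. Per kilobase of gene body the order changes, with Eif4g3 in the last place, because introns of the members differ in length and it is not stated over which feature reads were counted.

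The scaffold pool as a whole was smaller with DOX, and its make-up differed. The 3 Eif4g genes summed to 279, 292 and 298 CPM per exon kilobase in untreated clones 1, 2 and 3, and to 184, 191 and 230.3 in the same clones with DOX. Eif4g2 made up 42.9%, 42.3% and 45.6% of this sum without DOX and 28.9%, 26.5% and 35.1% with DOX. The share of Eif4g3 was 13.6 ± 1.15% without and 20.7 ± 3.10% with DOX (SD, n = 3 clones), although its own level hardly differed. The ratio of Eif4g1 to Eif4g2, which does not depend on the scaling of the libraries, was 0.984, 1.06 and 0.904 without DOX and 1.68, 1.92 and 1.36 with it. In ieGFP it lay between 1.02 and 1.14 in all 4 libraries. For the sum, the Eif4g3 share and the ratio, treated and untreated clones did not overlap, and each two-sided exact permutation test gave p = 0.1, the smallest p that 3 against 3 libraries allow (adjusted p = 0.15 over 6 ratios and sums tested). All 3 measures contain Eif4g2, so they are not results separate from its own change. The tests did not use the pairing of libraries by clone.

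**Figure D2:**
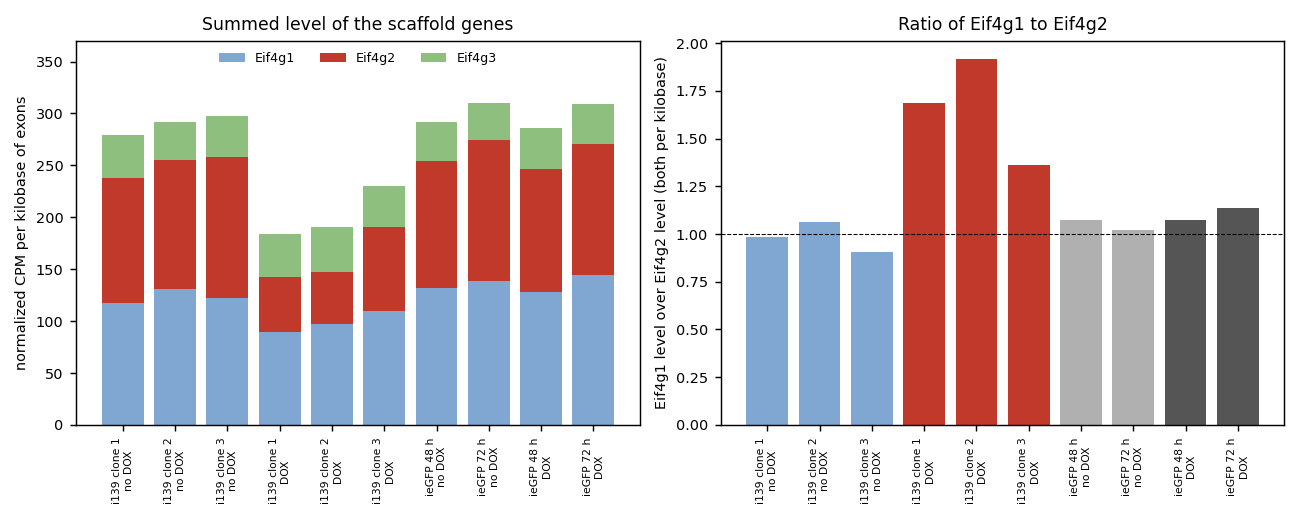
Left, summed level of Eif4g1, Eif4g2 and Eif4g3 per library in normalized CPM per kilobase of exons; right, level of Eif4g1 over that of Eif4g2 per library, with the dashed line at 1. The 3 DOX-treated i139 clones have the lowest sums (184 to 230.3) and the highest ratios (1.36 to 1.92) of the 10 libraries.

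The cap-binding protein genes did not rise either. Eif4e (ENSMUSG00000028156, chromosome 3, 138526179 to 138559696) had 165, 163 and 172 CPM without DOX and 124, 118 and 165 with DOX. Clone 3 with DOX lay inside the untreated range, while clones 1 and 2 lay below it. The log2 fold change was -0.29 (SE 0.13, n = 3 clones, adjusted p = 0.272, edgeR), the blocked fit gave an adjusted p of 0.0873 (0.0267 with all 10 libraries), and leaving out clone 3 a fold change of -0.42 (adjusted p = 0.0125, edgeR). Eif4e2 (ENSMUSG00000026254, chromosome 1, 87213914 to 87240488) had 92.3, 99.5 and 99.7 CPM without and 91.7, 98.3 and 92.1 with DOX, so the groups overlapped. Its log2 fold change was -0.03 (95% interval -0.24 to 0.17), and the adjusted p was 0.865 (edgeR).

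The helicase genes differed little. Eif4a1 (ENSMUSG00000059796, chromosome 11, 69666936 to 69672423) had 1011, 1107 and 1067 CPM without DOX and 880.1, 940.0 and 918 with it. All treated clones lay below all untreated ones, with log2 changes within a clone from -0.24 to -0.20. The fitted log2 fold change was -0.21 (SE 0.09, n = 3 clones, adjusted p = 0.254, edgeR; with the clone as a block 0.101, and 0.0271 in all 10 libraries). A processed pseudogene, Eif4a-ps4, had 6502 counts over the 10 libraries, and reads could be split between it and its parent. Eif4a2 (ENSMUSG00000022884, chromosome 16, 23107444 to 23114136) had 170.4, 169 and 176 CPM without and 160.5, 161 and 166 with DOX. These groups did not overlap, but the difference was -0.07 on the log2 scale (SE 0.08, adjusted p = 0.673, edgeR). Other genes, most of them snoRNAs, cover 12.51% of the body of Eif4a2 and 13.26% of its merged exon bases. Eif4a1 made up 88.4 ± 0.537% of the summed helicase level per kilobase without DOX and 87.4 ± 0.373% with DOX (SD, n = 3 clones).

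Among the inhibitors, Eif4ebp1 varied most between libraries. Eif4ebp1 (ENSMUSG00000031490, chromosome 8, 27260329 to 27276674) had 55.9, 53.7 and 78.7 CPM in untreated clones 1, 2 and 3 and 34.8, 38.8 and 75.3 with DOX. The groups overlapped, because both libraries of clone 3 were high. The log2 fold change was -0.33 (SE 0.29, n = 3 clones, adjusted p = 0.561, edgeR). The blocked value was -0.39 (SE 0.12, adjusted p = 0.0789, and 0.0271 with the block in all 10 libraries), and without clone 3 it was -0.56 (adjusted p = 0.00596, edgeR). In ieGFP the libraries of 72 h, 77.5 CPM without and 82.4 with DOX, were also above those of 48 h, with 48.3 and 59.5.

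Eif4ebp2 (ENSMUSG00000020091, chromosome 10, 61428491 to 61452661) had 264, 314 and 312 CPM without DOX and 276, 303 and 314 with DOX. The groups overlapped almost fully, with 1.01 times the untreated level (95% interval 0.855 to 1.20, adjusted p = 0.947, edgeR). The summed Eif4ebp level over that of Eif4e, both per kilobase, was 2.59, 2.89 and 3.13 without and 3.09, 3.57 and 3.22 with DOX in clones 1, 2 and 3. The ratio was higher with DOX in each clone, but the groups overlapped (two-sided exact permutation test, p = 0.2, adjusted p = 0.24 over the 6 measures). It was also higher with DOX in ieGFP, at 2.94 against 2.71 at 48 h and 3.11 against 2.82 at 72 h, a larger difference at both times than in i139 clone 3.

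Pdcd4 (ENSMUSG00000024975, chromosome 19, 53892231 to 53929860) had 215, 238 and 266 CPM without DOX and 207, 187 and 189 with DOX. All treated clones lay below all untreated ones, and the log2 changes of clones 1, 2 and 3 were -0.06, -0.35 and -0.49. Clone 3, which had the smallest change in 6 of the 10 members, had the largest in Pdcd4, and also in Eif4e2 (-0.11) and Eif4a2 (-0.09). The log2 fold change of Pdcd4 in i139 was -0.29 (SE 0.11, n = 3 clones, adjusted p = 0.190, edgeR; with the clone as a block 0.108, and 0.0364 in all 10 libraries). In ieGFP its log2 change was -0.02 at 48 h and -0.21 at 72 h.

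Over the 10 members, 8 had a negative and 2 a positive fold change, with a median of -0.25 against 0.01 over all genes tested. None passed an adjusted p of 0.05 in the fit without the clone, in which 0.0624% of all genes did, while 3 members, and 20.6% of all genes, had an unadjusted p under 0.05 (edgeR). With the clone as a block 1 member passed, Eif4g2, against 12.4% of all genes, and with DESeq2 the same 1, against 8.09%. The DESeq2 share is a low estimate, since only 12869 of the 19223 genes were given an adjusted p, of which 1556 passed. Without clone 3, and with no block, 4 members passed as lower, Eif4g1, Eif4g2, Eif4e and Eif4ebp1, against 10.1% of all genes. In the blocked fit of all 10 libraries 6 passed as lower, against 10.9%: these 4, Eif4a1 and Pdcd4 (adjusted p from 0.000296 for Eif4g2 to 0.0364 for Pdcd4, edgeR). In 5 members, Eif4g1, Eif4g2, Eif4a1, Eif4a2 and Pdcd4, all treated clones lay below all untreated ones, as in 12.8% of all genes. No member lay above, as 12.0% of all genes did. In 8 members, all but Eif4g3 and Eif4ebp2, each clone was lower with DOX than without, compared with 26.5% of all genes, and in 0 each clone was higher, compared with 27.2%.

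**Figure D3:**
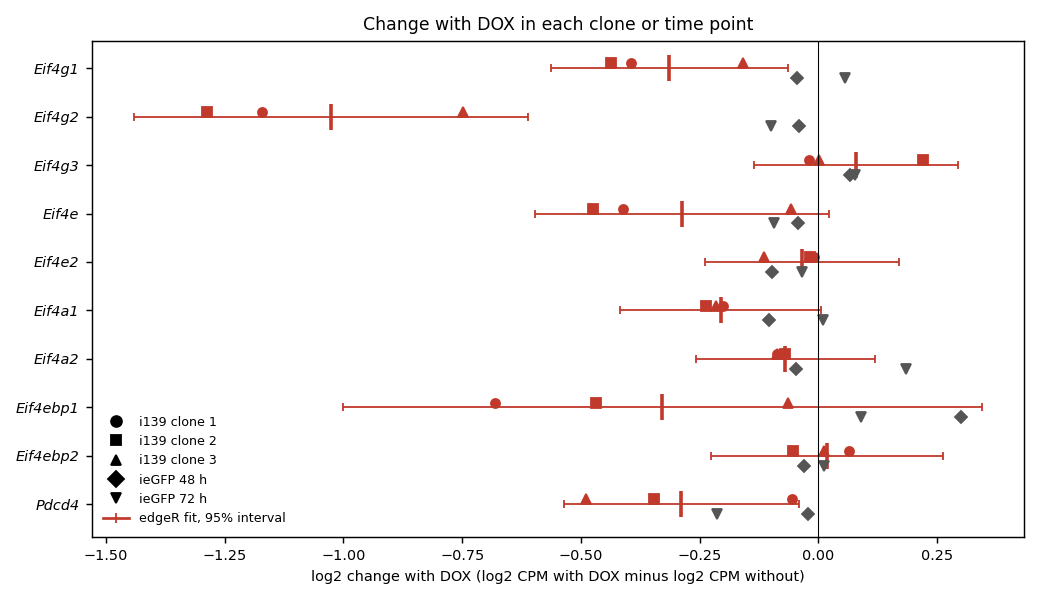
Log2 change with DOX (horizontal axis) of each eIF4F gene in the 3 i139 clones (red) and at both ieGFP time points (gray), with the edgeR estimate for i139 and its 95% interval as a red line. Eif4g2 lies between -1.29 and -0.75 in i139 and between -0.10 and -0.04 in ieGFP, and for Eif4g3 the i139 interval includes 0.

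The control line tested whether DOX itself moved these genes. In untreated ieGFP, Eif4g2 had 1247 CPM at 48 h and 1382 at 72 h, and DOX-treated cells had 1211 and 1289. The log2 fold change was -0.07 (95% interval -0.49 to 0.35, adjusted p = 1.00 over 20269 genes, edgeR). The fold changes of the 10 members lay between -0.12 for Pdcd4 and 0.17 for Eif4ebp1, with a median of -0.03. No member passed the adjusted threshold, and neither did any other gene (0.00%). No member had an unadjusted p under 0.05 either, as 1.28% of all genes did. This fit shared its spread with the i139 clones, and the SE of Eif4g2 was 0.19, against 0.086 in the ieGFP libraries alone. With those libraries alone no member had an unadjusted p under 0.05 (edgeR). The groups did not overlap for Eif4g3, which was higher with DOX (13.9% of all genes were), and for Eif4e2, which was lower (13.0%).

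The response of Eif4g2 to DOX differed between the constructs by -0.97 on the log2 scale (SE 0.25, unadjusted p = 0.00246, adjusted p = 0.527, interaction term of edgeR), a test that 0 members and 0.00493% of all genes passed. With the clone, or for ieGFP the time point, as a block the difference was -0.998 (SE 0.15, adjusted p = 0.0346, edgeR), and 0.187% of all genes passed this test. No other member passed it. The interaction of Eif4g1 was -0.33 (adjusted p = 0.544, edgeR; 0.162 with the block) and that of Eif4g3 was -0.0048 (SE 0.12, adjusted p = 0.998, edgeR). As ieGFP is 1 clone, a difference between constructs cannot be told apart from one between that clone and the others.

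Before induction, the 95% interval of the difference between the constructs included 0 in all members but Pdcd4. Some intervals were wide, with -0.72 to 0.71 on the log2 scale for Eif4ebp1, so the constructs were not shown to be alike. Untreated i139 and ieGFP differed in Eif4g2 by -0.03 on the log2 scale (95% interval -0.42 to 0.35). The largest difference was that of Pdcd4, 0.31 higher in i139 (SE 0.11, unadjusted p = 0.0167, adjusted p = 1.00, edgeR), with 215 to 266 CPM in i139 and 179 and 208 in ieGFP. No member passed the adjusted threshold, as 0.0444% of all genes did.

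The members with a miR-139-5p match in the 3′ UTR, Eif4g2, Eif4ebp1 and Eif4e, had log2 fold changes of -1.03, -0.33 and -0.29 with DOX in i139, and the 7 without one ranged from -0.31 to 0.08 with a median of -0.07. This split used the longest 3′ UTR. Eif4e2, which has a match when all annotated 3′ UTRs are used, is among the 7 and had -0.03. Eif4g1 and Pdcd4, without a match to either strand, had fold changes of -0.31 and -0.29, close to those of Eif4e and Eif4ebp1. With 8-base matches in both Eif4g2 and Eif4e, the change of Eif4g2 was larger in each clone, at -1.17, -1.29 and -0.75 on the log2 scale against -0.41, -0.47 and -0.06. Whether the position of the site or the length of the UTR bears on this was not tested.

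Other initiation genes were grouped in 5 lists of 69 genes. In the fit without the clone none of them passed an adjusted p of 0.05 in i139 (edgeR), and the counts that follow are those with the clone as a block, where 5.33% of all genes passed as lower and 7.05% as higher. The genes named are those with the lowest p in each list. Of the 11 accessory factors and poly(A)-binding proteins, 8 were tested, with a median of -0.19, and 1 fell. It was Pabpc4, a poly(A)-binding protein, with 329 ± 22.0 CPM (SD, n = 3 clones) without and 223 ± 67.4 with DOX and a blocked log2 fold change of -0.58 (adjusted p = 0.0363, edgeR). Paip2b, which holds poly(A)-binding proteins off the mRNA, had -0.31 (adjusted p = 0.0593), and Eif4a3, an RNA helicase of the exon junction complex, had -0.20 (adjusted p = 0.125, edgeR).

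Of the 14 eIF3 subunits 13 were tested, with a median of -0.23, and 1 fell. Eif3j1 had 122 ± 6.22 CPM without and 91.7 ± 19.2 with DOX, with a blocked log2 fold change of -0.42 (adjusted p = 0.0423, edgeR). It is close in sequence to Eif3j2, and reads could be split between them. Eif3d and Eif3i, subunits of the same complex, had -0.25 and -0.26 (adjusted p = 0.0706 and 0.0725, edgeR). At an unadjusted p under 0.05, 8 subunits were lower and 1 higher with the block, as were 14.8% and 16.4% of all genes.

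Start codon selection and subunit joining was the list with the most calls, as 6 of 18 genes tested fell and 0 rose, with a median of -0.25. Eif2b5 and Eif2b1 encode subunits of eIF2B, the exchange factor that recharges eIF2 with GTP. Eif2b5 went from 105 ± 7.50 CPM without to 76.7 ± 6.17 with DOX, and Eif2b1 from 71.9 ± 3.43 to 50.9 ± 7.12, with blocked log2 fold changes of -0.44 and -0.49 (adjusted p = 0.0278 and 0.0272, edgeR). Eif2s3x, the gamma subunit of eIF2 that carries GTP, had a blocked change of -0.50 (adjusted p = 0.0278, edgeR). The other calls, named after their values were seen, were Eif2b3 (-0.65), Eif1a (-0.43) and Denr (-0.35). In ieGFP none of these 18 genes had an unadjusted p under 0.05, where 1.28% of all genes did, and none passed the test of the difference between constructs (adjusted p, edgeR, with or without the block).

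Of 21 kinases, ligases and mTOR pathway genes that act on eIF4F, 4 rose and 1 fell, and the median was 0.12. Deptor, an inhibitor of mTOR, fell from 15.9 ± 1.76 CPM to 9.43 ± 1.57, by 0.75 on the log2 scale in the blocked fit (adjusted p = 0.0252, edgeR). Sesn2 and Sesn3, stress-induced genes that restrain mTORC1, rose by 0.78 and 2.26 (adjusted p = 0.0339 and 0.0173, edgeR). In clones 1, 2 and 3 Sesn2 was higher by 0.99, 1.06 and 0.24, and at the ieGFP time points by 0.22 and 0.44. Sesn3 was low, at 0.668 ± 0.389 CPM without and 3.32 ± 2.46 with DOX. Ddit4, which restrains mTORC1 under stress, and Mknk1, which encodes the eIF4E kinase MNK1, rose by 1.49 and 0.59 (adjusted p = 0.0440 and 0.0422, edgeR) and are named after their values were seen. Ddit4 rose by 2.10 and 2.06 in clones 1 and 2 but its difference in clone 3 was 0.17. None of the 21 passed the test of the difference between constructs (adjusted p, edgeR, with or without the block). Among 3 of the 4 partners of 4EHP that were tested none passed, and the values were 0.60 for Zfp36, -0.21 for Zfp598 and -0.12 for Gigyf2.

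**Figure D4:**
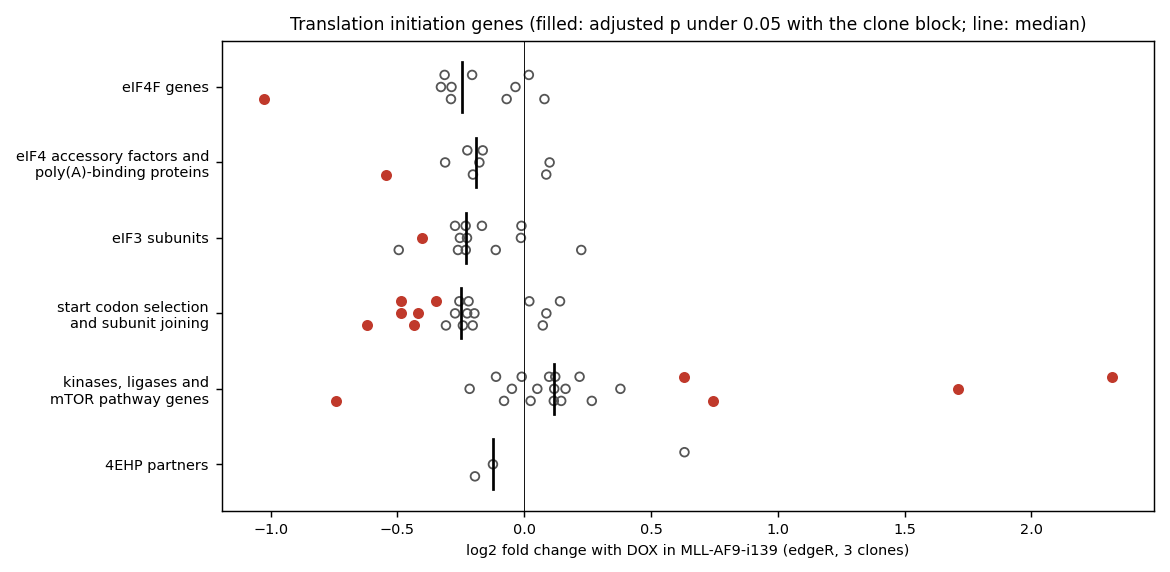
Log2 fold change with DOX in i139 (horizontal axis, edgeR, 3 clones) of the eIF4F genes and of 5 lists of other initiation genes, with 1 circle per gene tested, filled where the adjusted p was under 0.05 with the clone as a block, and the list median as a line. Eif4g2 at -1.03 is the lowest gene shown, the start codon list has 6 filled circles, all below 0, and 4 of the 5 in the mTOR list lie above 0.

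Genes with a pattern like that of Eif4g2 were sought by Pearson's r of log2 CPM over the 10 libraries, among 8383 genes with a mean of at least 10 CPM. The highest were Mcm10 (0.995), Hspa4 (0.993), Gmps (0.992), Nup155 (0.991) and Orc6 (0.991). The lowest were Ddx58 (-0.997), Wdfy4 (-0.996) and Rab31 (-0.996). The libraries share clones and the 3 induced libraries set most of the range, so these values are a description. Over the 7 libraries without miR-139 induction r was between 0.50 and 0.84 for the first 5 genes and between -0.88 and -0.85 for the last 3. Among the members, r with Eif4g2 was 0.93 for both Eif4e and Eif4g1, 0.86 for Eif4a1 and -0.71 for Eif4g3. Counted from the highest r of the 8383 genes, these stood at places 695, 793, 1502 and 6366, so many other genes lay closer to Eif4g2. Over the 7 libraries without induction r was 0.78 for Eif4e, 0.30 for Eif4g1, 0.25 for Eif4a1 and -0.48 for Eif4g3.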

How the data were processed

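RNA was extracted with TRIzol, depleted of ribosomal RNA and sequenced on a NovaSeq instrument. Per the labels and methods, the authors mapped reads to GRCm38 with STAR (2.5.3e), counted them per gene with featureCounts (1.6.0) and deposited raw counts. The feature, strand and overlap settings are not given in the sources used here. The 2 deposited tables had 0 differing values in the 10 libraries, and 14 columns of other samples were not used.

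Differences in counts were tested by the quasi-likelihood method of edgeR 4.0.16 in R 4.3.3 (genes with at least 10 counts in total, TMM, Benjamini-Hochberg over all genes), on the 6 i139 libraries for i139 and on all 10 for the other comparisons. CPM are normalized counts relative to the library total, log2 CPM carry a prior count of 2, and SE is the fold change over the square root of F. Levels per length used GENCODE M21. Ratios were tested with exact permutation tests (scipy 1.17.1). The fits without the block for i139, ieGFP and the interaction were tested on simulated counts that held no differences between clones. The blocked fits, the comparison of untreated constructs, the permutation tests and the seed search were not.

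Clone numbers pair the libraries, since the sample titles give both libraries of a clone the same number: deviations from the group means correlated at 0.378, 0.285 and 0.411 within clones and between -0.313 and -0.0433 across clones (Pearson's r over 19223 genes). Without the block, p-values in i139 measure the spread between clones. In the other comparisons the spread is shared over all libraries, between i139 clones and between ieGFP time points. With the block, p-values measure how far the DOX differences vary between clones, or also between time points where ieGFP is included. The smallest chi-square per degree of freedom between libraries of a group was 13.5, so none were duplicates.

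Named were the 10 members, up to 3 genes of lowest p in each list, and the 5 highest and 3 lowest genes by r with Eif4g2. The members and lists were chosen with earlier results of these data known. Alternatives were DESeq2 1.42.0, RLE scaling, 2 other filters, the clone block, other sets of libraries, each clone or time point left out, and other lengths and UTRs. Counting intervals were not given for single genes.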

Additional observations from a re-analysis of the deposited data

Results flagged for a closer look

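Eif4ebp1 moved in opposite directions in the constructs, and the difference is given for that reason. It was lower with DOX in 3 of 3 i139 clones, with log2 changes of -0.68, -0.47 and -0.06, and higher at both ieGFP time points, by 0.30 and 0.09. The interaction was -0.51 (SE 0.46, adjusted p = 0.731, edgeR) and -0.60 with the clone or time point as a block (SE 0.18, adjusted p = 0.127, edgeR). Over the alternatives it lay between -0.72 and -0.38, with adjusted p from 0.127 to 0.955, so it passes in none of them. Its level was higher in both libraries of clone 3 and in both ieGFP libraries of 72 h than in the others of the same construct and treatment, and the part of the time in culture was not tested.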

How the results depend on the processing

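Of the 10 members in 4 comparisons, 19 fold changes reversed, 17 passed the threshold under an alternative alone and 334 kept both direction and call. The reversals were all of uncalled changes that were small before an alternative was applied. Eif4ebp1 between untreated constructs was not small with 1 ieGFP time point left out (-0.34 and 0.39). The count of genes called in i139 was 12, against 1556 with DESeq2, 562 with a filter of at least 1 count, 6 with at least 10 counts in 3 libraries, 1234 in the fit of all 10 libraries, 2381 with the clone as a replicate block, and 4505 with the block in all 10 libraries, an alternative chosen after seeing the data. Leaving out each clone gave 0 to 3981, the highest without clone 3. The members called were 0, and 1 with DESeq2, with the 1-count filter, with all 10 libraries and with the block, 6 with the block in all 10 libraries (Eif4g1, Eif4g2, Eif4e, Eif4a1, Eif4ebp1, Pdcd4), and 0 to 4 without 1 clone. The fold change of Eif4g2 passed at -1.03 (DESeq2), -1.02 (1-count filter), -1.04 (all 10 libraries), -1.06 (block) and -1.07 (block, all 10 libraries), and was -1.21 to -0.92 without 1 clone. In ieGFP, 0 genes were called by edgeR (259 at an unadjusted p under 0.05), 1 with DESeq2 and 1 with the 1-count filter. The interaction called 1 gene, against 82 with DESeq2, 71 with the 1-count filter, 0 with the 3-library filter, 38 with the block and 0 to 2011 with 1 clone or time point left out. Of the members it called 0, and 1 with the 1-count filter, with the block and without clone 3 (0 to 1). The interaction of Eif4g2 passed at -0.97 (1-count filter) and -0.998 (block), and was -1.13 to -0.86 with 1 clone or time point left out. Untreated i139 against ieGFP called 9 genes, 45 with DESeq2, 37 with the 1-count filter and 0 to 30 with 1 clone or time point left out. There the block could not be fitted, because each clone has 1 construct. With 1 clone or time point left out, these uncalled changes crossed 0: in i139 Eif4e2 (-0.065 to 0.0048) and Eif4ebp2 (-0.020 to 0.047), in ieGFP Eif4g1 (-0.040 to 0.041) and Eif4a2 (-0.043 to 0.17), in the interaction Eif4g3 (-0.079 to 0.057) and Eif4ebp2 (-0.0065 to 0.047), and between untreated constructs Eif4g2 (-0.14 to 0.053), Eif4a2 (-0.050 to 0.13), Eif4ebp1 (-0.34 to 0.39) and Eif4ebp2 (-0.14 to 0.00031). The interaction of Eif4g3 also reversed with DESeq2 and RLE size factors (0.0088 each) and with the 3-library filter (0.0075), and Eif4ebp1 between untreated constructs with the 1-count filter (0.0019). Per kilobase of gene body, Eif4g2 made up 68.4% of the untreated Eif4g level, against 43.6% per kilobase of exons. The cause of these moves was not tested. Within the 6 i139 libraries, and in the interaction and ieGFP, the block changed no other call among the members.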
